A study of Mus musculus with 24 samples.

Results

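The Nr4a family of orphan nuclear receptors has 3 genes in the mouse, Nr4a1, Nr4a2 and Nr4a3, and all of them were read by symbol from a table of hippocampal read counts for 47593 genes. Their levels are described here over 4 time points around fear conditioning in wild-type (WT) mice and in mice labelled Tob knockout (Tob-KO).

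NR4A proteins are zinc-finger transcription factors with no known classical ligand, so their activity follows largely from how much of them a cell makes. Synaptic activity and cAMP signalling turn the genes on within minutes through CREB, a factor that binds cAMP response elements, and the messages decay soon after. NR4A factors are needed for long-term hippocampal memory, while NR4A2 (Nurr1) is best known for keeping midbrain dopamine neurons differentiated and also marks neurons of the claustrum and of the deepest cortical layers.

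RNA was taken from whole hippocampi of male mice aged 8 to 12 weeks on a C57BL/6J background. The 24 libraries form 8 groups of 3 biological replicates, 4 groups of WT and 4 of Tob-KO. Naive mice had no fear conditioning, and the remaining mice were sampled 15 min after, 1 h after or 3 h after a training session that pairs a chamber and a tone with foot shocks. No group exposed to the chamber without shock is among these libraries, so handling, novelty and shock cannot be told apart. The Tob-KO is constitutive, present in every tissue from conception, and bulk tissue gives 1 value for all cell types of the hippocampus.

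The study's methods credit the making and validation of the Tob-KO line to earlier work. Tob1 RNA, from the targeted gene, was higher and not lower in the libraries under that label. Its level was 38.1 ± 4.75 CPM (counts divided by the TMM-adjusted library total, mean ± SD, n = 3) in naive WT and 53.4 ± 1.74 in the naive libraries labelled Tob-KO, and it was higher under that label at all 4 time points (log2 fold change 0.47 to 0.67, edgeR exact test, adjusted p from 0.023 to 1.26e-12). The table gives 1 count per gene, so reads from the disrupted and the remaining part of the locus cannot be told apart. Total counts ran from 28847989 to 41595972 per library. All 10 hippocampal neuron markers were present, at a summed 5550 to 6920 CPM. Markers of choroid plexus, a tissue inside the ventricles, ranged from 26.1 to 4910 CPM between libraries. The 3 WT libraries at 15 min had 26.1 to 43.2 CPM of them. Fits that hold this score fixed are given beside the Nr4a1 results.

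In GRCm38, Nr4a1 (ENSMUSG00000023034.7) spans 101254269 to 101274795 of chromosome 15 and reads forward. Nr4a2 (ENSMUSG00000026826.13) spans 57106830 to 57124003 of chromosome 2 and reads in reverse. Nr4a3 (ENSMUSG00000028341.9) spans 48045153 to 48086447 of chromosome 4 and reads forward. GENCODE lists 3, 3 and 2 protein-coding transcripts for them in that order, and no other annotated gene overlaps any of the 3, so no antisense or overlapping gene shares their reads in this annotation.

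The promoters are shown because the 3 genes are known as CREB targets and were compared for moving together. RefSeq windows from 250 bases before to 50 after the transcription start were available for all 3 genes (GRCm38.p6). The sequences below are the bases before the start that lie outside annotated exons, 5′ to 3′ on the gene's own strand, at chr15:101266596-101266845 for Nr4a1, chr2:57124004-57124253 for Nr4a2 and chr4:48045055-48045152 for Nr4a3. Capitals mark TGACG, the core of the cAMP response element (CRE), on the gene's strand or its complement CGTCA.
Nr4a1: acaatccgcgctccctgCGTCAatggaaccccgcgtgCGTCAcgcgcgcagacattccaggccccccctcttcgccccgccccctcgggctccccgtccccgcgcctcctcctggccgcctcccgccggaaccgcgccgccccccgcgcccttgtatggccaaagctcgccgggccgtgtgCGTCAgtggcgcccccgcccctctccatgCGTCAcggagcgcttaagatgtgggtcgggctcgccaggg
Nr4a2: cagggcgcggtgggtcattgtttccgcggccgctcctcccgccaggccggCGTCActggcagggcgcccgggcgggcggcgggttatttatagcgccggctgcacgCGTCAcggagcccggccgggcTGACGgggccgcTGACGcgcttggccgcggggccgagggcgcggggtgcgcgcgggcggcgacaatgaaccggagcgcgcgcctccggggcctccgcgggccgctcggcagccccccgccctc
Nr4a3: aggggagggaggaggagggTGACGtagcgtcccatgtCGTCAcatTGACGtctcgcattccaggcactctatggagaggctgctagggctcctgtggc

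Each of the 3 windows held 4 CRE cores. Over all 32851 RefSeq promoter windows of the same length, 20.8% held at least 1 and 0.231% held 4 or more. In Nr4a1 all 4 lie on the opposite strand, starting at positions -233, -213, -69 and -40 from the transcription start. In Nr4a2 they lie between positions -200 and -107, 2 on each strand. In Nr4a3 they lie between positions -231 and -143, and the nearest to the start is in bases annotated as exon and not printed. The full palindrome TGACGTCA, which contains a core on each strand and is in 1.79% of windows, was in none of the 3. Neither were the CArG box, the MEF2 box or AAAGGTCA, the NBRE that NR4A proteins bind themselves. TATAAA was found once, on the reverse strand of the Nr4a2 window, and is in 13.6% of all windows. A letter match is not a measured binding site.

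**Figure D1:**
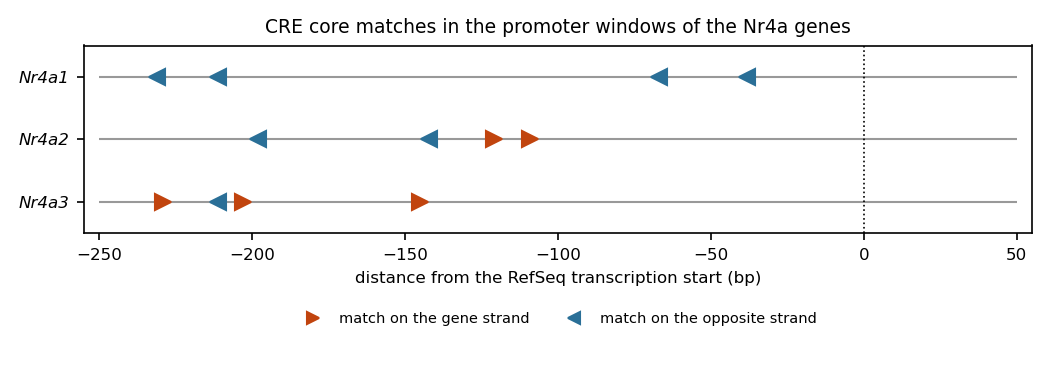
Positions of the CRE cores TGACG in the RefSeq promoter windows of the 3 Nr4a genes; the x axis is the distance from the transcription start in bp, and each triangle is a match, pointing along the strand on which it reads. Each gene has 4 matches, all upstream of the start.

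Per kilobase of annotated exon, the scale on which different genes can be compared, group means of the 3 members lay between 12.2 and 29.1 CPM per kb. In naive WT hippocampus the levels were 18.2 ± 0.284 CPM per kb for Nr4a1, 20.6 ± 2.95 for Nr4a2 and 12.7 ± 1.25 for Nr4a3 (SD, n = 3). In the naive libraries labelled Tob-KO they were 13.8 ± 0.373, 15.2 ± 7.49 and 14.6 ± 1.55 CPM per kb. At 1 h the WT levels per kb were 26.8 ± 3.33, 25.9 ± 5.51 and 20.7 ± 0.97. Exon lengths are the union over transcripts, 3509, 4059 and 5987 bp, and the isoforms in use are not known from gene counts.

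Taking both genotypes together, Nr4a1 was higher at 15 min and at 1 h than in naive mice, Nr4a3 was higher at 1 h, and both fell between 1 h and 3 h. Nr4a2 passed the test in no comparison of times, and at 3 h no member passed it against naive. In bulk tissue, fewer cells of a type and less RNA per cell cannot be told apart.

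Nr4a1 was already called higher at 15 min, the time at which its libraries differed most. In naive WT libraries it stood at 64.1, 64.8 and 62.9 CPM, and in naive Tob-KO libraries at 49.6, 47.1 and 49.1 CPM. The 15 min WT libraries had 151, 63.4 and 91.8 CPM of Nr4a1, and the 15 min Tob-KO libraries had 122, 61.6 and 59.3 CPM. In each genotype 1 library of 3 carried the highest value of the time course, while the lowest of the 15 min WT libraries lay inside the naive WT range. In Tob-KO all 3 libraries at 15 min lay above the 3 naive ones, and the share of all genes doing so was not computed. At 1 h the values drew together, at 94.7, 105 and 82.1 CPM in WT and 94.9, 96.7 and 82.1 CPM in Tob-KO. At 3 h they were 51.7, 49 and 69.0 CPM in WT and 43.5, 40.7 and 44.6 CPM in Tob-KO. All 6 libraries at 1 h were above all 6 naive libraries and all 6 at 3 h, comparisons in which 3.69% and 3.35% of all genes did not overlap.

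Over both genotypes, Nr4a1 rose by 0.70 ± 0.17 on the log2 scale (SE) at 15 min against naive, a 1.63-fold change (edgeR quasi-likelihood test with genotype as a factor, 6 against 6 libraries, adjusted p = 0.0153). This comparison called 4.7% of 19500 genes. Nr4a1 was 1.67-fold above naive at 1 h (log2 0.74 ± 0.17, adjusted p = 0.00916), a comparison that called 6.15% of genes, and the change from 15 min to 1 h was not called (log2 0.03, 95% interval -0.30 to 0.37). From 1 h to 3 h it fell by 0.92 on the log2 scale (SE 0.17), to 0.53 of its level (adjusted p = 0.0026), where 3.81% of genes were called. The calls at 15 min and 1 h held when each library was left out in turn, with adjusted p from 0.00725 to 0.0486 and from 0.0113 to 0.0276, and with the choroid plexus score held fixed (log2 0.59 and 0.77, adjusted p = 0.0358 and 0.00377). These 5 comparisons with the genotypes combined were added after the values within each genotype were seen, and they share libraries with one another.

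Within a genotype Nr4a1 passed the test at no time point. In WT the changes against naive were 0.67 ± 0.24 at 15 min (log2 ± SE, adjusted p = 0.497) and 0.56 ± 0.24 at 1 h (adjusted p = 0.398). The WT change at 1 h passed with only the 6 libraries compared in the fit (adjusted p = 0.049). From 1 h to 3 h the WT change was -0.73 ± 0.24 (adjusted p = 0.223), and it passed in no alternative fit. The 15 min value in WT was 0.28 without WT 15 min replicate 1, the library with the most Nr4a1, 0.92 without WT 15 min replicate 2 and 0.45 with the choroid plexus score held fixed. With that score the change in WT from 15 min to 1 h went from -0.12 to 0.12, both far from the threshold (adjusted p = 0.898 and 0.887). In Tob-KO the changes against naive were 0.74 ± 0.24 at 15 min (adjusted p = 0.109) and 0.91 ± 0.24 at 1 h (adjusted p = 0.0626), and from 1 h to 3 h the change was -1.09 ± 0.25 (adjusted p = 0.0623). The 15 min value in Tob-KO was 0.32 without Tob-KO 15 min replicate 1 and 0.66 with the choroid plexus score, and neither passed. The changes in Tob-KO at 1 h and from 1 h to 3 h did pass with only the 6 libraries compared in the fit (adjusted p = 0.00344 and 0.000397), with DESeq2 (0.0316 and 0.0138), with no filter on low counts (0.0288 and 0.0102) or with the choroid plexus score as a covariate (0.0342 and 0.0182). In Tob-KO the summed choroid plexus markers were 75.8, 4910 and 2350 CPM in naive, 2180, 2260 and 3170 CPM at 1 h and 2080, 61.2 and 54.9 CPM at 3 h.

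Beside the 15 min values, the summed level of 5 blood markers was 64.4 to 124 CPM in WT against 45.5 to 66.6 in naive WT, and that of 5 endothelial markers was 185 to 248 against 127 to 174 CPM. In Tob-KO the blood markers were 38.3 to 51.1 CPM at 15 min against 40.8 to 44.4 in naive, and the endothelial markers 166 to 185 against 141 to 151 CPM. WT 15 min replicate 1, the library with the most Nr4a1, had the 124 CPM of blood markers. In Tob-KO the 51.1 CPM at 15 min was in replicate 3, which had 59.3 CPM of Nr4a1. Within groups, Nr4a1 had an r of 0.56 and a rho of 0.313 with the blood markers (permutation p adjusted to 0.197 and 0.425). The r was 0.177 without the 2 libraries farthest out in the blood score, 0.745 in WT and 0.225 in Tob-KO. With the endothelial markers the r was -0.46 and the rho -0.293 (adjusted 0.27 and 0.441). No fit of the 15 min change held these 2 scores.

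**Figure D2:**
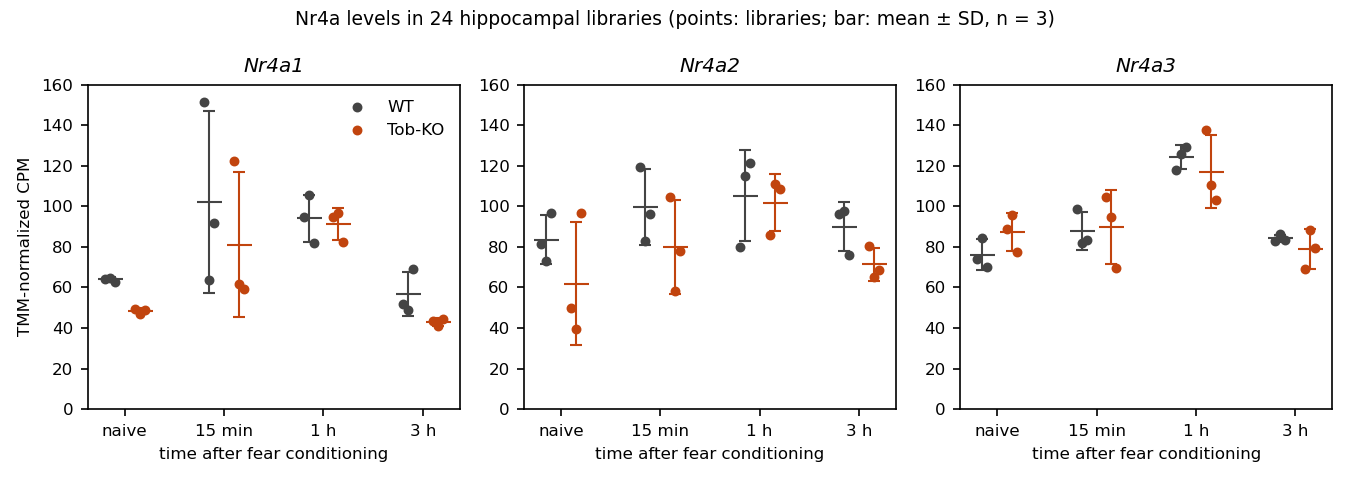
Levels of the 3 Nr4a genes in TMM-normalized CPM (y axis) at 4 time points (x axis) in WT (grey) and Tob-KO (orange) hippocampus; points are libraries, and bars are the mean ± SD of 3. Nr4a1 is spread widely at 15 min (63.4 to 151 CPM in WT), and Nr4a3 peaks at 1 h in both genotypes.

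Nr4a3 rose at 1 h. In naive WT libraries it stood at 73.8, 84.5 and 70.2 CPM and at 15 min at 98.6, 81.9 and 83.1 CPM. At 1 h it reached 118, 126 and 129 CPM in WT, above every other WT library, and at 3 h it was back at 82.9, 86.2 and 83.5 CPM. Of all genes, 16.1%, 15.3% and 19.1% did not overlap in WT between 1 h and naive, 15 min and 3 h. In Tob-KO it stood at 88.7, 95.6 and 77.3 CPM in naive, 105, 94.8 and 69.6 CPM at 15 min, 137, 110 and 103 CPM at 1 h and 68.9, 88.3 and 79.3 CPM at 3 h. The Tob-KO libraries at 1 h were above all naive and 3 h libraries, and overlapped those at 15 min, while 20.7% and 19.4% of all genes did not overlap between 1 h and naive and between 1 h and 3 h.

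Over both genotypes Nr4a3 rose 1.48-fold at 1 h against naive (log2 0.56 ± 0.09, edgeR quasi-likelihood, adjusted p = 0.000965) and 1.36-fold from 15 min to 1 h (log2 0.45 ± 0.09, adjusted p = 0.0249), where 0.513% of genes were called. It then fell by 0.57 on the log2 scale from 1 h to 3 h (SE 0.09, adjusted p = 0.000797). At 15 min it was 0.12 ± 0.09 from naive (adjusted p = 0.492). At 3 h it was -0.004 from naive, with a 95% interval of -0.19 to 0.18, and that comparison called 0% of genes, with 1765 under 0.05 before adjustment and 4 called by DESeq2. The step from 15 min to 1 h lost its call when 1 of 6 libraries was left out (WT 15 min replicates 2 and 3, WT 1 h replicates 2 and 3, Tob-KO 15 min replicate 3, Tob-KO 1 h replicate 1), with adjusted p from 0.0524 to 0.0883.

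Nr4a3 was also the 1 member called within a genotype. In WT it was 1.63-fold higher at 1 h than in naive mice (log2 0.71 ± 0.13, edgeR quasi-likelihood, 3 against 3 in a model of 24 libraries, adjusted p = 0.0274), where 0.185% of genes were called. Leaving out WT naive replicate 1 or 3 or any of the 3 WT libraries at 1 h took the adjusted p to 0.0754 to 0.136, with log2 values of 0.66 to 0.74 in those 5 fits. In Tob-KO the change was 0.43 ± 0.13 (adjusted p = 0.0874), where 1.13% of genes were called. DESeq2 did call this change in Tob-KO (adjusted p = 0.027). From 1 h to 3 h the change was -0.56 ± 0.13 in WT (adjusted p = 0.0651) and -0.57 ± 0.13 in Tob-KO (adjusted p = 0.0557), where 0.226% and 0.215% of genes were called. DESeq2 called both (adjusted p = 0.00342 and 0.00231).

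In the remaining comparisons within a genotype no member was called. The genes called were 0.0462% at 15 min against naive in WT and 2.51% in Tob-KO, and 0.0103% from 15 min to 1 h in WT. From 15 min to 1 h in Tob-KO, and at 3 h against naive in WT and in Tob-KO, 0% of genes were called by edgeR's quasi-likelihood test, while 1659, 779 and 2071 genes had a p under 0.05 before adjustment and 44, 0 and 23 called by DESeq2. Nr4a3 was called by DESeq2 in WT from 15 min to 1 h (adjusted p = 0.0241).

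**Figure D3:**
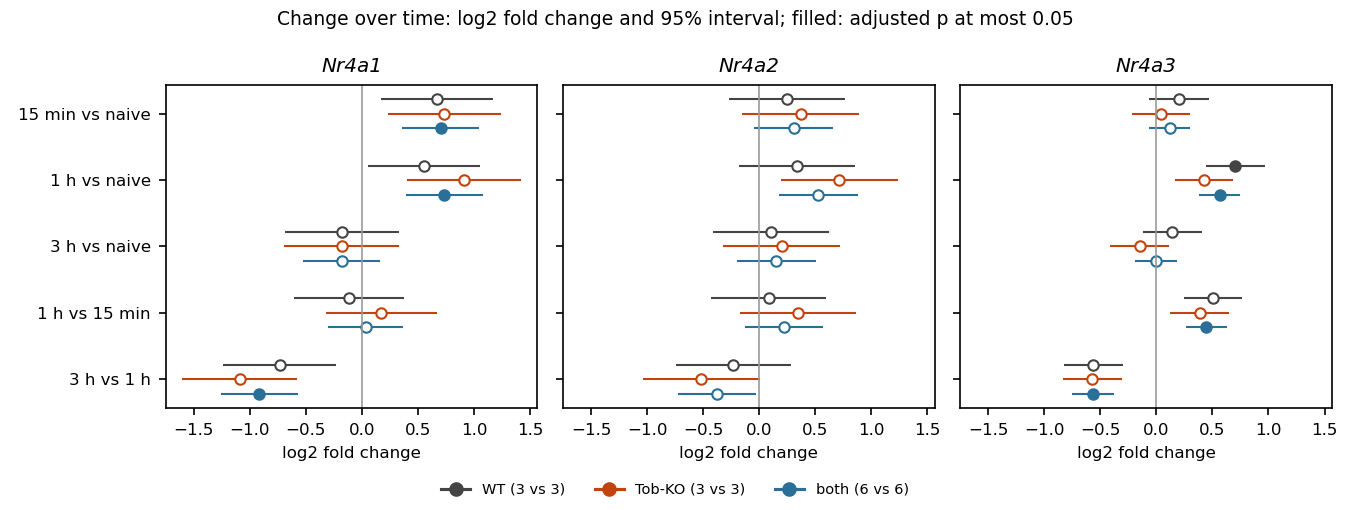
Log2 fold change between time points (x axis) for each Nr4a gene, with its 95% interval, in WT, in Tob-KO and with the genotypes combined; filled points passed at an adjusted p of at most 0.05. Nr4a1 is filled at 15 min, 1 h and from 1 h to 3 h with both genotypes together, Nr4a3 at 1 h in WT and in 3 of the 5 combined comparisons, and Nr4a2 in none.

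Nr4a2 varied as much between libraries of a group as between times. In naive WT libraries it stood at 81.2, 72.9 and 96.5 CPM and in naive Tob-KO libraries at 49.8, 39.4 and 96.5 CPM. One naive Tob-KO library thus matched the highest naive WT library while the other two lay below all WT libraries. The 15 min WT libraries had 120, 82.6 and 96.3 CPM of Nr4a2, and the 15 min Tob-KO libraries had 104, 58.2 and 77.7 CPM. At 1 h it was 79.7, 115 and 121 CPM in WT and 85.6, 111 and 109 CPM in Tob-KO. At 3 h it was 96.4, 97.7 and 75.9 CPM in WT and 80.5, 65.3 and 68.4 CPM in Tob-KO. The WT groups overlapped at every pair of times. The only Tob-KO groups of Nr4a2 that did not overlap were those at 1 h and 3 h, as for 19.4% of all genes.

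Over both genotypes the change of Nr4a2 was 0.31 ± 0.17 at 15 min (log2 ± SE, adjusted p = 0.32), 0.53 ± 0.17 at 1 h (adjusted p = 0.0683) and -0.38 ± 0.17 from 1 h to 3 h (adjusted p = 0.261). The 1 h change passed with DESeq2 (adjusted p = 0.0452), without WT 1 h replicate 1 (0.0303) and without naive Tob-KO replicate 3 (log2 0.69, 0.0173). Within Tob-KO it was 0.72 ± 0.25 at 1 h (adjusted p = 0.154) and 1.19 without naive replicate 3 (adjusted p = 0.0227).

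The spread of Nr4a2 within groups went with a joint score of markers of the claustrum and deep cortical layers. After the mean of each group was taken off, Nr4a2 and the mean log2 level of 6 such markers (Gnb4, Cplx3, Nxph4, Moxd1, Tle4 and Ctgf) had a Pearson r of 0.901 and a Spearman rho of 0.845 over 24 libraries. The permutation p was 1e-05 for r, the smallest that 100000 permutations within groups can give, and 2e-05 for rho (adjusted over 30 relations, 0.0003 and 0.0006). The r was 0.845 without the 2 libraries farthest out in the marker score, 0.765 in the 12 WT libraries and 0.95 in the 12 Tob-KO libraries. All 6 markers were detected in every group, at a summed 104 to 144 CPM per library. The naive Tob-KO libraries had 105, 104 and 144 CPM of them, in the order in which Nr4a2 had 49.8, 39.4 and 96.5 CPM. The markers did not all move alike. In naive Tob-KO against WT the log2 differences were -0.788 for Cplx3, -0.845 for Nxph4 and -0.606 for Ctgf. Those of Gnb4, Moxd1 and Tle4 were -0.018, 0.028 and 0.039, and none of the 6 was called. The relation with Nr4a2 was not computed marker by marker. Nr4a2 was also inversely related to markers of hippocampal neurons (r = -0.655), microglia (-0.676) and oligodendrocytes (-0.639), each with a permutation p adjusted to 0.0268. The part of tissue composition in the Nr4a2 values was not tested.

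With that marker score held as a covariate, which was tried after the relation was seen, Nr4a2 was higher at 1 h than in naive mice over both genotypes (log2 0.40, edgeR quasi-likelihood, adjusted p = 0.00553) and fell by 0.41 on the log2 scale from 1 h to 3 h (adjusted p = 0.00429). In Tob-KO the change from 1 h to 3 h then passed too (log2 -0.51, adjusted p = 0.0426), and the naive genotype difference of Nr4a2 moved from -0.43 to -0.04. The score was picked by its relation with Nr4a2 in these same libraries. A smaller spread of Nr4a2 in these fits was thus built in, and their calls are not independent tests. Why the genotype difference moved was not tested.

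For Nr4a1 the spread within groups went with 16 activity-induced effectors, a list that holds synaptic regulators and phosphatases that damp ERK signalling (r = 0.92, rho = 0.823, permutation p adjusted to 0.0176 and 0.0273), and with 16 other activity-induced transcription factors (r = 0.855, rho = 0.738, adjusted 0.016 and 0.0273). Without the 2 libraries farthest out in each list's score the r values were 0.85 and 0.715. The r with the effectors was 0.937 in WT and 0.907 in Tob-KO. At 15 min the summed effectors were 1250, 818 and 906 CPM in WT and 1070, 777 and 826 CPM in Tob-KO, so in each genotype the library with the most Nr4a1 also had the most of them. Nr4a2 had an r of 0.129 with the effectors and Nr4a3 one of 0.441 (adjusted permutation p = 0.729 and 0.27). Nr4a1 was also inversely related to the choroid plexus score over the 24 libraries (permutation p adjusted to 0.0341 for r and 0.0461 for rho). That score fell into separate sets of 10 and 14 libraries, so no pooled r is given. In the set with the higher score, Nr4a1 had an r of 0.105 and a rho of 0.11 with it over the 13 libraries that shared a group (permutation p = 0.885 and 0.9, adjusted over 3 members to 0.885 and 0.979, r = -0.079 without the 2 farthest), and in the other set 5 libraries shared a group, too few for a value.

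**Figure D4:**
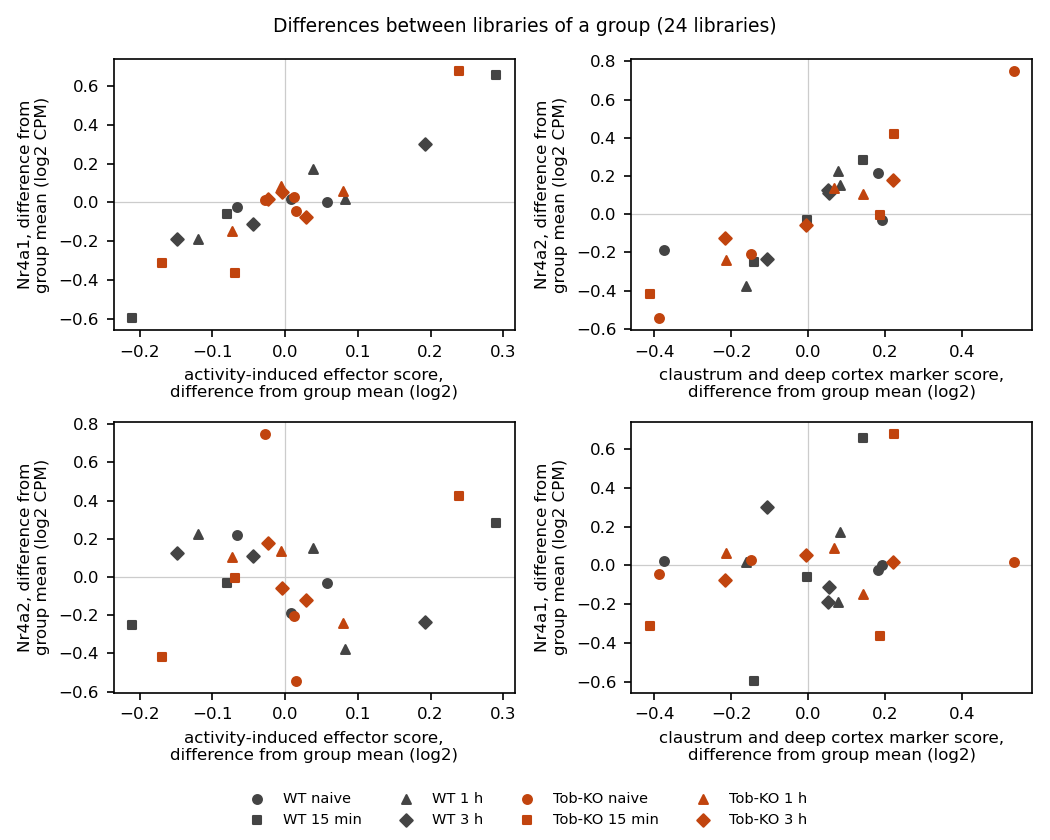
Difference of each library from its group mean: Nr4a1 and Nr4a2 in log2 CPM (y axes) against the score of activity-induced effectors (left) and of claustrum and deep cortex markers (right), both the mean log2 level of the list; colours are genotypes, shapes are time points, 24 libraries a panel. Nr4a1 follows the effectors (r = 0.92) and Nr4a2 the claustrum and deep cortex markers (r = 0.901), while the crossed panels have r of 0.129 and 0.237.

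No pair of members passed the test of a relation within groups. The r was 0.348 for Nr4a1 with Nr4a2, 0.472 for Nr4a1 with Nr4a3 and -0.223 for Nr4a2 with Nr4a3 (rho 0.222, 0.341 and -0.155). The adjusted permutation p was 0.267, 0.267 and 0.433 for r and 0.558 for each rho, over 3 pairs. Without the 2 libraries farthest out in the first member, r was 0.108, 0.24 and -0.02.

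The levels of the members over time were also set out as ratios within a library, which cancel the library's depth. The log2 ratio of Nr4a3 to Nr4a1 in CPM went from 0.54 in naive mice to 0.04 at 15 min, 0.38 at 1 h and 0.73 at 3 h (means of 6 libraries). None of the 9 comparisons of ratios passed the exact permutation test within genotypes after adjustment. The lowest p values were 0.025 for the naive to 15 min change of that ratio and 0.025 for the 1 h to 3 h change of Nr4a2 over Nr4a1 (0.55 higher), both adjusted to 0.105, with 0.005 the smallest p this test can give. These ratios were chosen after the time courses were seen.

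Between genotypes, the values of Nr4a1 in naive mice did not overlap, at 62.9 to 64.8 CPM in WT and 47.1 to 49.6 CPM in Tob-KO, as for 11.5% of all genes. The difference of -0.40 ± 0.05 (log2 ± SE, 0.76-fold) had an adjusted p of 0.000996 by edgeR's exact test. It passed the false discovery rate of 0.05 with 0.0381% of genes, and it did not reach the fold of 2 that was also asked for, which 0.0218% of genes passed. The adjusted p was 6.93e-05 with DESeq2, 0.263 with edgeR's quasi-likelihood test, 0.729 with the spread taken from all 24 libraries and 0.0934 without WT naive replicate 2. Arc, a synaptic plasticity gene, was also lower in the naive Tob-KO libraries and under the same fold limit (log2 -0.54 ± 0.07, adjusted p = 2.05e-05).

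The other genotype differences of the members did not pass. The test called 0.55% of genes at 15 min, 0.033% at 1 h and 0.0274% at 3 h and none of the 3 members. These shares are 101, 6 and 5 genes, and the counts became 28 to 251, 4 to 156 and 3 to 16 with each library left out, the highest without Tob-KO 15 min replicate 1, WT 1 h replicate 1 and Tob-KO 3 h replicate 1. With edgeR's quasi-likelihood test they were 0 at 15 min and at 1 h. For Nr4a1 the differences were -0.33 ± 0.33 at 15 min, -0.04 ± 0.09 at 1 h and -0.41 ± 0.12 at 3 h (adjusted p = 0.973, 1 and 0.351), and the groups did not overlap at 3 h, as for 12% of all genes. For Nr4a2 they were -0.43 ± 0.30 in naive, -0.31 ± 0.19 at 15 min, -0.05 ± 0.14 at 1 h and -0.34 ± 0.11 at 3 h (adjusted p = 1, 0.825, 1 and 0.607). Without naive Tob-KO replicate 3 the naive difference of Nr4a2 was -0.90 with an adjusted p of 3.6e-05, and without WT 3 h replicate 3 that at 3 h was -0.45 with an adjusted p of 0.00908, both under the fold limit. For Nr4a3 the 4 differences lay between -0.10 and 0.20 (adjusted p = 1 for each).

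Over all time points, 12 libraries a genotype, Nr4a1 had 79.2 CPM in WT and 65.9 CPM in Tob-KO, a log2 difference of -0.29 with a 95% interval of -0.54 to -0.05 (edgeR quasi-likelihood, adjusted p = 0.268). Nr4a2 had 94.6 and 78.8 CPM, a log2 difference of -0.28 with an interval of -0.53 to -0.03 (adjusted p = 0.307). Nr4a3 had 93.1 and 93.2 CPM, a difference of 0.01 with an interval of -0.12 to 0.14 (adjusted p = 0.969). This comparison called 0.462% of genes.

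No member passed the test of the interaction, the difference between genotypes in the change over time. The interaction of Nr4a1 was 0.06 ± 0.34 at 15 min and 0.35 ± 0.34 at 1 h, and that of Nr4a3 was -0.16 ± 0.18 and -0.28 ± 0.18 (log2 ± SE, edgeR quasi-likelihood, adjusted p at least 0.894 for every member and time). The interaction called 0% of genes at each of the 3 times after training, while 939, 809 and 924 genes had a p under 0.05 before adjustment, and 0 in each by DESeq2. The 95% interval for Nr4a1 at 1 h ran from -0.36 to 1.06, which includes differences between genotypes as large as the time effect itself.

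Ordered by mean level, Nr4a1 ran from WT 15 min (102 CPM) through WT 1 h, Tob-KO 1 h and Tob-KO 15 min to naive WT, WT 3 h, naive Tob-KO and Tob-KO 3 h (42.9 CPM). Of neighbours in that order, only naive Tob-KO and Tob-KO 3 h did not overlap, as for 15.2% of all genes. Nr4a2 ran from WT 1 h (105 CPM) to naive Tob-KO (61.9 CPM) and Nr4a3 from WT 1 h (124 CPM) to naive WT (76.2 CPM), with an overlap between all neighbours.

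The 5 genes most like each member over the 24 libraries were picked by Pearson r of log2 CPM among 19500 genes. These r values are descriptions, since all libraries share the same time groups. Nearest to Nr4a1 were Arc (0.954), Junb (0.934), which encodes an AP-1 factor, Dusp6 (0.927), a phosphatase of ERK, Gadd45b (0.914) and the zinc-finger factor gene Egr1 (0.913). Nearest to Nr4a3 were Arl5b (0.933), Tiparp (0.895), Errfi1 (0.883), a feedback inhibitor of the EGF receptor, Ipmk (0.867) and Dusp5 (0.866), a nuclear phosphatase of ERK. Nearest to Nr4a2 were Irgq (0.91), the kinase gene Nuak1 (0.91), Flrt1 (0.897), Sod2 (0.893), which encodes the mitochondrial superoxide dismutase, and Pcdhb19 (0.889). No gene stood in more than 1 of the 3 sets. By the same measure Nr4a1 had r of 0.61 with Nr4a2 and 0.621 with Nr4a3, ranks 328 and 285, and Nr4a2 had 0.265 with Nr4a3, rank 4007.

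The retinoid X receptors, with which NR4A1 and NR4A2 pair on DNA, were called in none of the comparisons. Rxra ranged from 39.1 to 48.0 CPM over the means of the 8 groups, Rxrb from 59.4 to 63.4 and Rxrg from 3.59 to 5.22. At 1 h against naive over both genotypes the log2 changes were 0.10 ± 0.07 for Rxra, -0.08 ± 0.04 for Rxrb and 0.35 ± 0.16 for Rxrg (adjusted p = 0.434, 0.269 and 0.226).

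Of 16 genes upstream of Nr4a transcription, kinases, CREB and its coactivators, MEF2 and SRF, 2 rose at 1 h over both genotypes, Srf (log2 0.19, adjusted p = 0.00719) and Creb1 (0.17, 0.0096), and none fell. Over all genes 2.45% rose at 1 h and 3.71% fell. Srf then fell by 0.21 on the log2 scale from 1 h to 3 h (adjusted p = 0.00502). At 15 min none of the 16 was called. Within the Tob-KO libraries Crebbp, which encodes the CREB-binding protein, fell by 0.25 on the log2 scale at 15 min (adjusted p = 0.0178). In that comparison 1.68% of all genes fell, and the interaction at 15 min called 0% of genes. Among the histone deacetylases and corepressors reported here, Hdac9 rose at 1 h (log2 0.28) and Sin3a fell from 1 h to 3 h (by 0.21 on the log2 scale), with adjusted p of 0.0192 and 0.0107.

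Of 16 other activity-induced transcription factors, 9 rose at 15 min over both genotypes and none fell, where 1.68% of all genes rose, with a median log2 change of 0.71 against 0.00 over all genes. The largest changes were those of Egr2 (2.66 ± 0.28), Fos (2.09 ± 0.23), Npas4 (1.60 ± 0.17) and Ier2 (1.13 ± 0.16), each with an adjusted p at or under 0.000325. At 1 h 12 of the 16 were higher than naive (median 0.80), led by Egr2, Fos, Atf3 and Fosb, where 2.45% of all genes rose. From 1 h to 3 h 12 fell, where 2.21% of all genes fell. From 15 min to 1 h Npas4 and Ier2 fell, by 1.32 and 0.75 on the log2 scale (adjusted p = 0.000478 and 0.0279). At that step Fosl2 rose (0.47, adjusted p = 0.0279). Nr4a1, at 0.70 and 0.74, was near the median of this list at both times, and Nr4a3, at 0.12 and 0.56, was below it.

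Of the 16 effectors, 7 rose at 15 min and 9 at 1 h over both genotypes, where 1.68% and 2.45% of all genes rose. Cyr61 (1.68 ± 0.20), Btg2 (1.21 ± 0.10), Arc (1.19 ± 0.20) and Dusp1 (1.12 ± 0.17) had the largest log2 changes at 15 min, with adjusted p at or under 0.00164. From 1 h to 3 h 9 of them fell and 1 rose, where 2.21% of all genes fell and 1.59% rose. RefSeq windows were found for 12 of the transcription factors, and 10 of these held a CRE core, against 20.8% of all windows. The windows compared, here and for the Nr4a genes, were not matched for base composition.

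Genes named as NR4A targets elsewhere were mostly not called. Of 15 chaperones and folding enzymes of the endoplasmic reticulum, known to depend on NR4A factors in hippocampal memory, none was called in any comparison. At 3 h against naive the fitted log2 change was positive for all 15 in WT (median 0.22) and negative for 13 of 15 in Tob-KO (median -0.18), and the median over both genotypes was 0.06. Over all genes the medians were -0.005 in WT and -0.008 in Tob-KO. Between genotypes at 3 h all 15 had a negative log2 difference (median -0.31 against -0.002 over all genes), among them Hspa5, which encodes the chaperone BiP (-0.56 ± 0.13, edgeR exact test, adjusted p = 0.0564), Manf (-0.41 ± 0.08, 0.0556) and Xbp1 (-0.36 ± 0.08, 0.0564). The interaction at 3 h was negative for all 15 (median -0.40 against 0.006 over all genes) and passed for none, with adjusted p at or above 0.894. It is the Tob-KO change minus the WT change, so its sign is not a result separate from those changes. Alternative fits were not read out for these genes. These genes share libraries and are not independent of one another. At 15 min and 1 h the medians over both genotypes were -0.06 and 0.01. Of 5 other neuronal targets, Fosl2 alone was called, 0.63 ± 0.10 higher at 1 h over both genotypes (adjusted p = 0.000582), where 2.45% of all genes rose. Fosl2 is also named above with the activity-induced transcription factors, so this is not a separate response. Of the 8 dopamine neuron genes, 6 had enough counts to be tested over 24 libraries and none was called. The last time point is 3 h, so later changes were not measured.

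Of the 46 other nuclear receptor genes, 37 had enough counts to be tested. Over both genotypes 3 rose at 15 min, Rorb (0.48), Nr2e1 (0.37) and Nr3c1 (0.18), which encodes the glucocorticoid receptor, with adjusted p of 0.00899, 0.00391 and 0.00972, where 1.68% of all genes rose. At 1 h Rorb and Nr2e1 were still above naive (0.40 and 0.38), and Nr2e1 fell by 0.37 on the log2 scale from 1 h to 3 h (adjusted p = 0.00411). The median of the 37 was 0.05 at 15 min and 0.07 at 1 h, against 0.70 and 0.74 for Nr4a1, 0.31 and 0.53 for Nr4a2 and 0.12 and 0.56 for Nr4a3.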

How the data were processed

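The authors mapped 150-bp paired-end reads of poly(A) RNA from directional libraries to GRCm38 with STAR 2.6.1d and counted them with HTSeq 0.9.0, and deposited raw counts per gene and library. The annotation release and strand setting of the counting were not given in the sources used here. Members, gene lists and comparisons were chosen with earlier results of these data known, and named genes followed a fixed rule (members, targeted gene, the 5 most alike, up to 4 called genes a list, RXR genes, marker lists). Genotypes were compared at each time with edgeR 4.0.16 (exact test, TMM, at least 0.2 CPM in 2 of 6 libraries, FDR and p at most 0.05, fold at least 2), as the study's methods state. Times, interactions and the genotype over all times used the quasi-likelihood test over 24 libraries (FDR at most 0.05, 16 residual degrees of freedom in the 8-group model). P-values were adjusted by Benjamini-Hochberg over all genes tested. Standard errors and intervals come from the quasi-likelihood fit. Correlations used log2 CPM (prior count 2) and 100000 permutations within groups. Scripts were tested on simulated data. Recovery was required there only at a log2 change of 2, and false calls were limited for the quasi-likelihood tests but not for the exact test. The depth was 28847989 to 41595972 counts per library, and the members had 1252 to 5176 counts in each. PCR reads were counted without molecular identifiers. Replicate pairs differed by a chi-square of 3.68 to 22.8 per degree of freedom, so none looked like 1 library deposited again. Alternatives were DESeq2 1.42.0, other scaling, filters, covariates, a replicate block and leaving out each library. One gene of the list of histone deacetylases and corepressors is not reported here.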

Additional observations from a re-analysis of the deposited data

How the results depend on the processing

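Of 1110 recomputed values of the members, 1007 kept their direction and side of the threshold, 12 lost a call, 28 gained one and 63 changed sign. The exact test relies on a spread from 3 libraries a group, and no other limit of depth applied to genes with at least 1252 counts. The number of members called, 1 in WT at 1 h against naive, was 0 with a fold of at least 2, 2 with the 6 libraries alone, and 0 to 1 with each library left out. It was 0 in WT from 1 h to 3 h and became 1 with no filter, with the claustrum and deep cortex score, with 6 libraries and with DESeq2. In Tob-KO at 1 h against naive it was 0 and became 1 with no filter, the choroid plexus score or 6 libraries, 2 with DESeq2, and 0 to 1 with each library left out. In Tob-KO from 1 h to 3 h it was 0 and became 2 with no filter, the choroid plexus score or DESeq2, 3 with the claustrum score and 1 with 6 libraries. It became 1 in WT from 15 min to 1 h with DESeq2 and 1 between naive genotypes with no fold limit. Over both genotypes from 15 min to 1 h it was 1, and 0 to 1 with each library left out. The cause of these changes was not tested.

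Signs changed for these values, none of them past its threshold. With the claustrum score, Nr4a1 between genotypes at 15 min was 0.007, Nr4a2 at 3 h against naive was -0.19 in Tob-KO and -0.012 over both genotypes, Nr4a3 at 3 h over both was 0.071, Nr4a3 between genotypes over all times was -0.045, and the interactions were -0.011 for Nr4a1 at 15 min and -0.047, -0.14 and -0.32 for Nr4a2 at the 3 times. With the choroid plexus score, Nr4a1 in WT from 15 min to 1 h was 0.12. Nr4a2 and Nr4a3 had an r of 0.32 in WT alone. With each library left out, the genotype difference ran from -0.76 to 0.064 for Nr4a1 and -0.096 to 0.18 for Nr4a3 at 15 min, and from -0.13 to 0.043 for Nr4a1 and -0.21 to 0.068 for Nr4a2 at 1 h. That of Nr4a3 over all times ran from -0.019 to 0.04. Over both genotypes Nr4a3 at 3 h ran from -0.039 to 0.049 and Nr4a1 from 15 min to 1 h from -0.07 to 0.20. In WT from 15 min to 1 h, Nr4a1 ran from -0.36 to 0.28 and Nr4a2 from -0.03 to 0.25. In Tob-KO, Nr4a1 from 15 min to 1 h ran from -0.005 to 0.59, Nr4a2 at 3 h from -0.038 to 0.68 and Nr4a3 at 15 min from -0.084 to 0.20. The interactions ran from -0.36 to 0.46 for Nr4a1 and -0.12 to 0.60 for Nr4a2 at 15 min, and from -0.091 to 0.17 for Nr4a1 and -0.14 to 0.57 for Nr4a2 at 3 h.

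Replicate numbers are shared between groups by name only: in 0 of 14 comparisons were all 3 correlations of same-numbered libraries over 0.1 (range -0.418 to 0.36). With the replicate block no member's call changed, and Nr4a3 at 3 h over both genotypes was 0.00. The block took the genes called from 490 to 251 in Tob-KO at 15 min, from 220 to 41 in Tob-KO at 1 h and from 36 to 13 in WT at 1 h. The genes called in the whole table depended on the tool and on single libraries. With DESeq2 in place of edgeR they were 945, 671 and 165 in those comparisons, 41 against 9 in WT at 15 min, 224 against 44 in WT and 258 against 42 in Tob-KO from 1 h to 3 h, 292 against 90 between genotypes over all times, 369 against 100 over both genotypes from 15 min to 1 h, and 35 against 101 between genotypes at 15 min. With each library left out, the genes called ran from 40 (without Tob-KO 15 min replicate 3) to 817 in Tob-KO at 15 min, from 0 (without Tob-KO 1 h replicate 2) to 250 in Tob-KO at 1 h, from 0 to 11 in WT at 1 h, from 0 to 25 in WT and 5 to 19 in Tob-KO from 1 h to 3 h, and, over both genotypes, from 366 to 1623 at 15 min, 670 to 1284 at 1 h, 17 to 175 from 15 min to 1 h and 442 to 652 from 1 h to 3 h. With the 6 libraries alone, 5 genes were called in Tob-KO at 15 min.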
